A study of Sus scrofa domesticus with 150 samples.

Results

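KRT5, KRT15, TP63, DST and CDH3 are genes of the basal layer of the epidermis. They were followed through 21 days of porcine skin wound healing as the rows of the gene count table that carry these symbols. All 5 were found among the 30461 genes in the table, TP63 through the name column and the other 4 through the gene name in the matched protein description. The tissue came from 6 female Yorkshire-mix pigs with full-thickness circular excisional wounds on the back, covered with Telfa Clear and Tegaderm dressings and otherwise untreated. The day 0 group held the whole tissue excised at wounding (6 samples, 1 per animal). On days 1 to 7, 9, 11 and 13 the edge and the center of 6 wounds were biopsied (2 wounds from each of 3 animals), and on days 15, 16, 19 and 21 those of 3 wounds (1 per animal). This gave 150 samples in 29 combinations of day and location. Days 1, 3, 5, 7, 11, 15 and 21 used animals 1 to 3 and days 2, 4, 6, 9, 13, 16 and 19 used animals 4 to 6, so that a difference between neighbouring days and a difference between the animals cannot be told apart. Breed and sex were shared by all groups, day 0 included, while only the wounds carried dressings. Wounds of the same animal are not independent animals, and each sample is whole tissue: fewer basal cells and less RNA per cell cannot be told apart in bulk RNA.

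The basal layer is the sheet of dividing keratinocytes that rests on the basement membrane. After wounding, keratinocytes at the margin and in hair follicles move over the wound bed as a tongue until the surface is closed, while the bed fills with granulation tissue that has no epidermis of its own. KRT5 is the type II keratin of basal cells and pairs with type I keratins. KRT15 is a type I keratin of resting basal cells and of the hair follicle bulge. TP63 is the transcription factor that specifies stratified epithelium and maintains its basal layer. DST encodes dystonin, a large linker of the cytoskeleton with an epithelial form (BPAG1e) that ties keratin filaments to hemidesmosomes and other forms in muscle and nerve. CDH3 encodes P-cadherin, an adhesion protein of basal and hair matrix keratinocytes.

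KRT5 (ENSSSCG00025059933) lay on contig LUXX01048831.1 from 2078081 to 2085192 on the + strand. TP63 (ENSSSCG00025001065) lay on LUXX01006048.1 from 414276 to 645293 on the + strand. DST (ENSSSCG00025051666) lay on LUXX01073936.1 from 2389081 to 2876795 on the − strand, and CDH3 (ENSSSCG00025045200) on LUXX01060426.1 from 111176 to 157102 on the + strand. The row named KRT15 (ENSSSCG00025027685) covered 235046 to 316574 on the − strand of LUXX01049411.1. These are whole gene models in the coordinates of the count table, and the name of their build is not given in the sources used here. The KRT15 row spanned 81529 bases, 14.45 times the RefSeq gene of that name in Sscrofa11.1, whereas the other 4 spans were 1 to 1.12 times their RefSeq genes. It overlapped EIF1 on the opposite strand and LAGE3 and KRT36 on the same strand. In the RefSeq order 9 genes lie between EIF1 and KRT36, of which 2 carry a keratin symbol (KRT15 and KRT19) and 7 a placeholder symbol. KRT19 had no row of its own in the count table. Neither had KRT14, the usual partner of KRT5, nor KRT16 and KRT17, under these symbols. Whether their reads fall in the row named KRT15 was not tested. The row is therefore called the KRT15 row below, because reads from KRT15 and from neighbouring type I keratins cannot be told apart in it.

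Between 13133379 and 24895572 reads per library were assigned to genes (median 17643938.5). A low gene such as TP63 in the day 5 wound center, at 0.107 to 1.78 CPM (the count scaled to a common library total), thus rested on few reads. Several libraries stood apart from their replicates and enter the results below. The edge and center libraries of day 3 wound 4 were more alike than any of the other 71 pairs from the same wound or any of 339 pairs of replicates, with a chi-square per gene of 4.784 against medians of 275 and 88.8. Those of day 3 wound 6 came next at 16.13, also under the lowest pair of replicates at 23.05. In both wounds the edge and center libraries still differed by more than sampling noise and were kept as separate samples. Day 3 edge sample 6 resembled a wound center, and center samples 5 of day 1, 4 of day 3 and 1 of day 11 resembled edges in the genes described here. The largest summed level of 8 skeletal muscle genes found was in center samples, up to 60487 CPM on day 2, against 8.30 to 19.0 CPM in day 0 skin.

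Per length, KRT5 was the most abundant of the 5 genes in day 0 skin. Its FPKM (fragments per kilobase of gene, scaled to library size) was 2170 to 3497 with a median of 2773. The KRT15 row followed at 831 to 1239 FPKM. That value uses a length of 6007 bases for a row in which several type I keratins cannot be told apart. In CPM the day 0 ranges of KRT5 and the KRT15 row overlapped. TP63 stood at 30.8 to 39.1 FPKM, CDH3 at 13.0 to 19.2 FPKM and DST at 9.18 to 12.6 FPKM. In FPKM the ranges of neighbours in this order did not overlap. At the wound edge on day 7 they did: KRT5 ranged from 1279 to 3138 FPKM and the KRT15 row from 778 to 2684 FPKM, and TP63 (10.1 to 32.5 FPKM) overlapped CDH3 (9.27 to 44.7 FPKM). DST stayed the lowest there at 5.62 to 8.54 FPKM. In the center on day 7, DST (2.55 to 8.79 FPKM) was within the range of KRT5 (1.94 to 25.6 FPKM), while TP63 (0.0264 to 0.272 FPKM) and CDH3 (0.118 to 0.261 FPKM) were far below it.

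**Figure D1:**
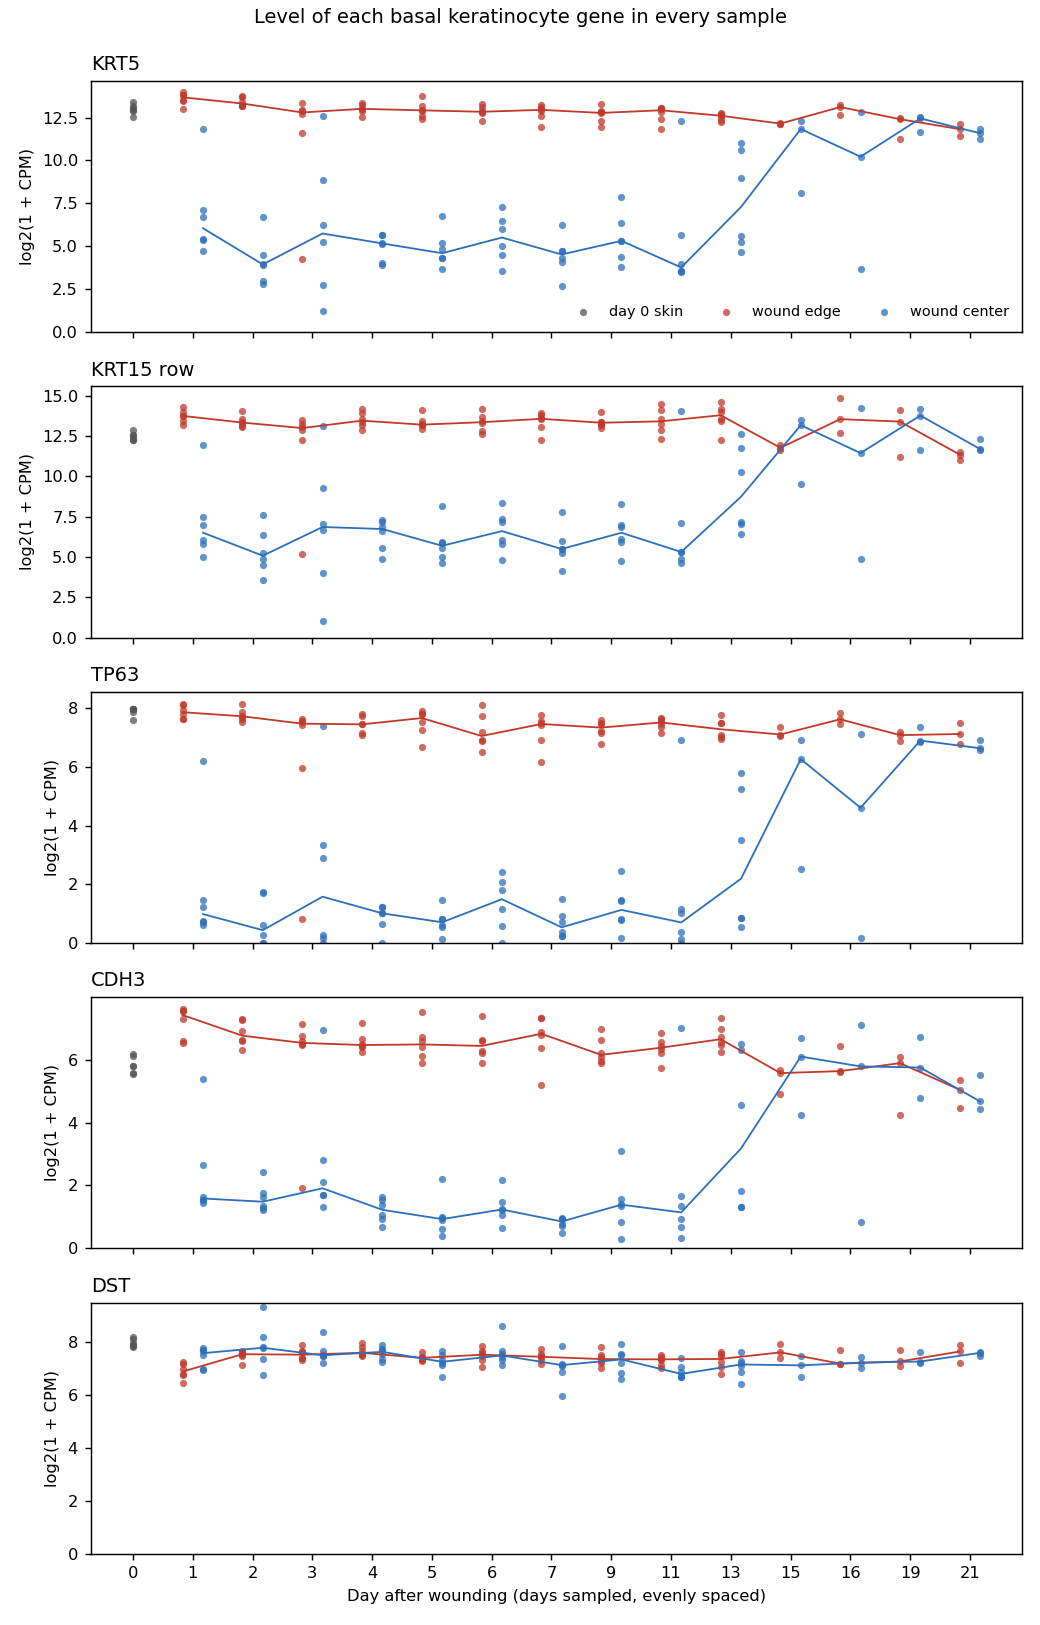
Level of each gene as log2(1 + CPM) on the vertical axis against the sampled days on the horizontal axis, with 1 point per sample and lines through the medians of the wound edge (red) and wound center (blue), and day 0 skin in grey. KRT5, the KRT15 row, TP63 and CDH3 were low in most center samples until day 11 and near edge levels in most of them from day 15, while the DST points of edge and center overlapped on every day.

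The first comparison asked where in the wound the basal genes were expressed, on each day. KRT5, the KRT15 row, TP63 and CDH3 were many times higher at the edge than in the center through most of the first 9 days, and DST was not. Each day was tested across all genes with edgeR's quasi-likelihood test, and called where the Benjamini-Hochberg adjusted p was under 0.05. KRT5, the KRT15 row and TP63 were each called higher at the edge on 8 of 14 days (days 1, 2, 4, 5, 6, 7, 9 and 13), and CDH3 on 7 (the same days without day 13). As background, 24.0%, 17.8%, 16.4%, 20.3%, 10.3%, 20.4%, 17.3% and 16.6% of the genes tested were called higher at the edge on these 8 days in turn. DST was called lower at the edge on day 1, when 22.6% of genes were, and higher on day 11, when 20.6% were. No member was called on day 3 (0.0% of genes called in either direction), 15 (17.4%), 16 (10.1%), 19 (0.0%) or 21 (0.0684%).

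On day 2 the edge samples held 9195 to 13573 CPM of KRT5 (median 10190) and the center samples 5.87 to 102 CPM (median 14.4). The edge and center samples did not overlap. The log2 fold change on day 2 was 8.72 ± 0.82 (SE, n = 6 against 6, edgeR adjusted p = 2.9e-06), the largest of the 14 days. On day 1 the center samples reached from 24.9 to 3597 CPM, the latter in sample 5, where the median was 71.6 CPM. All of them lay below the lowest edge sample at 8246 CPM, and the fold change was smaller and less certain, at 4.31 ± 1.27 (edgeR adjusted p = 0.015).

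The KRT15 row, read with the limit given above, followed the same course. On day 7 it held 4893 to 15654 CPM at the edge (median 12080) and 16.7 to 215 CPM in the center (median 44.0), with no overlap. Its log2 fold change was 7.34 ± 0.68 on that day (edgeR adjusted p = 2.9e-06), and 7.55 ± 0.73 on day 2.

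TP63 was close to undetected in the center. On day 5 its values were 0.107 to 1.78 CPM there (median 0.633) and 103 to 242 CPM at the edge (median 204), a log2 fold change of 8.08 ± 0.43 (edgeR adjusted p = 8.7e-09). The groups did not overlap. CDH3 had its largest difference on day 7, with 36.0 to 161 CPM at the edge (median 113) and 0.409 to 0.961 CPM in the center (median 0.811), a log2 fold change of 7.18 ± 0.42 (edgeR adjusted p = 8.3e-08).

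DST behaved otherwise. On day 7 the edge samples held 143 to 213 CPM (median 173) and the center samples 61.6 to 228 CPM (median 139), and the groups overlapped. On day 1 the edge held 86.9 to 150 CPM and the center 122 to 217 CPM, a log2 fold change of -0.50 ± 0.18 (edgeR adjusted p = 0.043). That call was lost with the wound as a block (-0.47, edgeR adjusted p = 0.119), without the low-count filter, with all samples in 1 fit and without any of samples 1, 3, 5 or 6 (-0.30 without sample 1). On day 11 the edge (129 to 181 CPM) exceeded the center (101 to 169 CPM) by 0.45 ± 0.13 (edgeR adjusted p = 0.014). The highest DST values of the series, 638 CPM in day 2 center sample 2 and 393 CPM in day 6 center sample 5, came from days whose center libraries also held the highest summed muscle levels (60487 and 47506 CPM). The part of muscle RNA in the DST values was not tested.

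Days 3 and 11 were set apart by single wounds. On day 3 KRT5 was 18.2 CPM in edge sample 6 against 3082 to 10198 CPM in the other edge samples, and 6049 CPM in center sample 4 against 1.35 to 460 CPM in the other center samples. The log2 fold change of 2.40 ± 1.69 was not called (edgeR adjusted p = 0.53), and no gene was called that day, although 1667 had an unadjusted p under 0.05. Without these 2 libraries it was 6.01 (edgeR adjusted p = 0.012), with 5.68, 5.67 and 5.14 for the KRT15 row, TP63 and CDH3, all called. With the wound as a block the 4 genes were at 3.64 to 5.27, none called. On day 11 center sample 1 held 4971 CPM of KRT5 against 10.2 to 49.3 CPM in the other 5, and the difference of 3.09 ± 1.58 was not called (edgeR adjusted p = 0.13, but called by DESeq2). It was 8.61 without that library and 8.18 with the wound as a block, and both were called, as were those of the KRT15 row, TP63 and CDH3 under the same 2 settings. The libraries left out on days 3 and 11 ran against the difference in these genes, so fits without them are no separate test. On day 13 the call rested on single wounds rather than animals: once both wounds of each animal were added together, the edge was still higher by 3.15 for KRT5, 3.05 for the KRT15 row and 3.31 for TP63, but none was called (edgeR adjusted p = 0.103, 0.123 and 0.0964). TP63 on day 1 was at 4.37 and also just missed the threshold in that fit (edgeR adjusted p = 0.0503).

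Within wounds, TP63 was higher at the edge than in the center of the same wound in 71 of 72 wounds, KRT5 in 68, the KRT15 row in 63, CDH3 in 63 and DST in 42. Those counts include day 3 wounds 4 and 6, whose edge and center libraries were unusually alike. On days 15, 16, 19 and 21 the KRT15 row was higher at the edge in 1, 3, 0 and 0 of 3 wounds, and CDH3 in 1, 1, 1 and 2. For the KRT15 row every day 21 edge sample lay below every center sample. That log2 fold change of -0.64 ± 0.27 was not called (edgeR adjusted p = 0.56). Averaged per animal, KRT5 was 5.56 ± 0.68 higher at the edge on the log2(1 + CPM) scale (mean ± SD, n = 6 animals), in 6 of 6 animals. The KRT15 row was 4.90 ± 0.70 higher, TP63 4.67 ± 0.57 higher and CDH3 3.44 ± 0.56 higher, each in 6 of 6 animals. For each of these 4 genes the two-sided exact sign-flip permutation test gave p = 0.0312, the smallest that 6 animals allow, and 0.0391 after adjustment over the 5 genes. It was run on the 5 members only, so the share of all genes that would reach this p is not known. DST differed by 0.07 ± 0.14 and was higher in 4 of 6 animals (exact permutation p = 0.281). The edge excess was smaller than that of KRT5 by 0.66 ± 0.17 for the KRT15 row, 0.90 ± 0.14 for TP63 and 2.12 ± 0.28 for CDH3, in 6 of 6 animals each (exact permutation p = 0.0312). The TP63 value followed the scale: it was -0.57 with a pseudocount of 0.5 CPM and -2.20 in log2(1 + FPKM), and the edgeR fold change of TP63 was above that of KRT5 on 8 of 14 days, so that no order between these 2 genes was settled. The size of the CDH3 value also moved with the scale, though not its sign. It was -1.91 with a pseudocount of 0.5 CPM and -2.74 in log2(1 + FPKM).

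**Figure D2:**
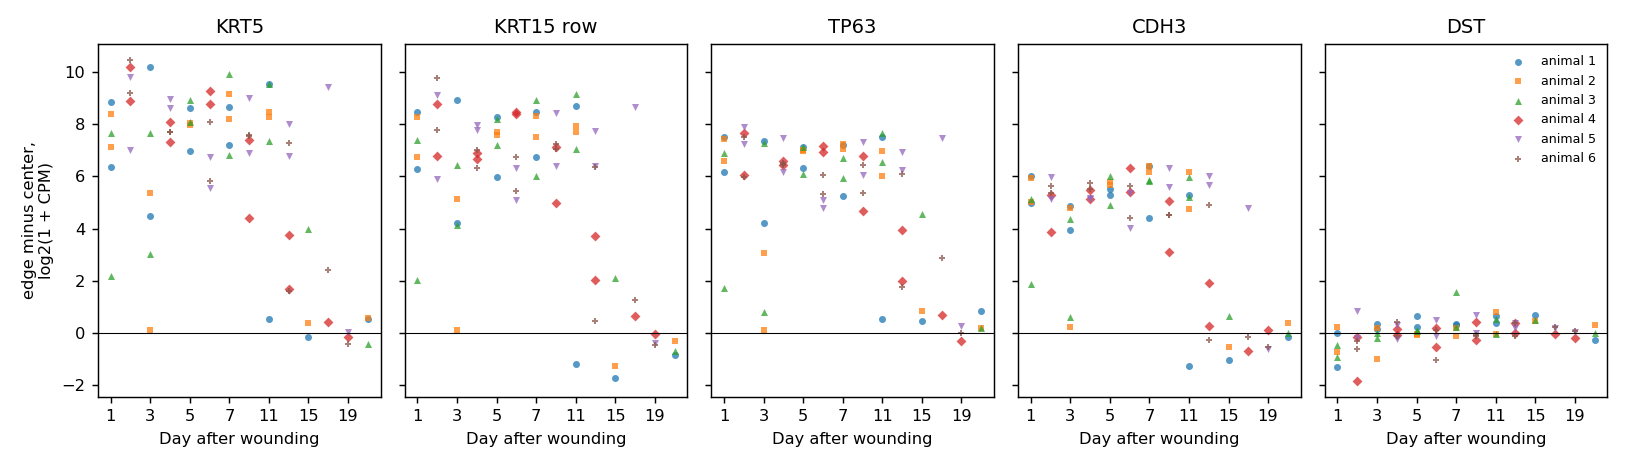
Edge minus center of the same wound in log2(1 + CPM) on the vertical axis against the day on the horizontal axis, with 1 symbol per wound and a different marker for each of the 6 animals. KRT5 was above 0 in 68 of 72 wounds and DST in 42, and most KRT5, KRT15 row, TP63 and CDH3 points fell to near 0 from day 15.

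Many genes that work with the members were also higher at the edge. Of 14 other basal layer and hemidesmosome genes found, 10 or 11 were called higher at the edge than in the center on each of days 1, 2, 4 to 7 and 9, with median log2 fold changes of 2.67 to 3.68. The median of all genes tested was between -0.06 and 0 on those days. COL17A1, the transmembrane collagen of hemidesmosomes, was called higher on 8 days and by up to 8.70. Others were not, and these 4 are named after their values were seen. ITGB1, a widely expressed integrin chain, was called lower at the edge on 10 of 14 days. CD151, a tetraspanin that binds integrins, was called lower on 2 days and higher on 1, PLEC (plectin) on 0 days, and COL7A1, the collagen of anchoring fibrils, higher on 2. Among 9 TP63 targets and partners, 6 to 8 were called higher on each of those 7 days and none lower, with PERP, a desmosomal protein, higher by up to 9.00 and ZNF750, a differentiation factor, by up to 8.67. Of 9 cadherin, catenin and desmosome genes, 8 were called higher on each of the 7 days, among them DSP (desmoplakin) on 8 of all 14 days. CTNNB1, a catenin found in most cell types, was called on 2 days and never moved by more than 0.50.

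Markers of other epithelial layers and appendages differed in the same direction. On those 7 days all 7 suprabasal genes found were called higher at the edge, with median log2 fold changes of 3.85 to 8.66, as were 3 to 4 of 4 gland and simple epithelium genes (2.57 to 5.44). Of the 7 hair follicle genes found of 8 listed, 0 to 6 were called higher, and some were too low to be tested on a given day. Their summed level was 0 to 6957 CPM at the edge (median 4.01, 72 samples) and 0 to 2196 CPM in the center (median 0.924), where KRT31, KRT35 and TCHH had a median of 0. The part of these cells in the members' differences was not tested.

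The second comparison set the wound edge against day 0 skin, whose whole excised tissue differs in make-up from a biopsy. All 14 days share the same 6 day 0 samples. The 5 genes went different ways at the edge: CDH3 and the KRT15 row were above day 0 through most of days 1 to 13, KRT5 was near it, and TP63 and DST were below it. As background, 26.4%, 23.0%, 25.0%, 29.3%, 27.2%, 28.1%, 23.5%, 23.1%, 24.6% and 15.0% of the genes tested were called higher than day 0 on days 1, 2, 4, 5, 6, 7, 9, 11, 13 and 16, the days on which a member was. On the 14 days in order, 23.9%, 22.7%, 22.8%, 24.2%, 26.6%, 27.1%, 28.1%, 20.8%, 23.7%, 24.1%, 5.78%, 11.8%, 16.4% and 13.0% were called lower.

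Markers of other cell types moved in the same comparison. The summed level of the hair follicle genes was 28.3 to 16438 CPM in day 0 skin (median 11786) against the median of 4.01 CPM at the edge, with 0 to 7 of 7 called lower on a day. That of 5 Schwann cell genes was 177 to 202 CPM in day 0 skin and 73.3 to 220 CPM at the edge, and 1 to 5 of them were called lower on days 1 to 13. All 6 neutrophil and macrophage genes were called higher on each of those days, by medians of 1.48 to 2.88, with a sum of 112 to 194 CPM in day 0 skin and 187 to 9495 CPM at the edge. They did not move alike. S100A8 and S100A9 rose by up to 9.6 and 10.3, and CD14, CD68, CSF1R and CXCR2 by up to 3.2, 2.6, 1.8 and 2.7. Against the center, S100A8 and S100A9 were called higher at the edge on 8 and 7 days. CD14, CD68, CSF1R and CXCR2 were called lower there on 8, 7, 8 and 1. Which cells gave this sum was not tested. KRT15 and CDH3 are also expressed in hair follicles and DST in nerve, and the part of these cells in the differences below was not tested.

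CDH3 was called higher on 9 of 14 days, which are days 1 to 13 without day 3, and lower on day 21. It held 45.5 to 71.9 CPM in day 0 skin (median 54.6) and 92.4 to 196 CPM at the edge on day 1 (median 171), with no overlap. This was a log2 fold change of 1.34 ± 0.21 (edgeR adjusted p = 0.00025). On day 13 it held 74.2 to 159 CPM and the difference was 1.06 ± 0.19 (edgeR adjusted p = 0.00048). On day 21 the 3 edge samples held 40.3, 32.0 and 21.0 CPM, all under the lowest day 0 sample, a change of -0.69 ± 0.21 (edgeR adjusted p = 0.032).

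The KRT15 row was called higher on 10 days (1, 2, 4 to 7, 9, 11, 13 and 16) and lower on days 15 and 21. Day 0 skin held 4894 to 7620 CPM (median 5671). The edge held 9173 to 20341 CPM on day 1 (median 13686), above every day 0 sample, and 4849 to 25366 CPM on day 13, where the difference was 1.5 ± 0.32 (edgeR adjusted p = 0.0019). The late days differed among themselves. On days 16 and 19, from animals 4 to 6, the 6 edge samples held 30004, 11914, 6645, 17496, 10704 and 2289 CPM, and on days 15 and 21, from animals 1 to 3, they held 3472, 3861, 3149, 2885, 2590 and 2036 CPM, a range that includes the lowest of the former 6. Day 15 was lower than day 0 by -0.73 ± 0.15 and day 21 by -1.02 ± 0.17. Among wound-activated keratins, KRT6B and KRT6C, type II keratins of stressed epidermis, were listed and were the 2 found of 5. KRT6C was called higher than day 0 on 12 of 14 edge days, all but days 15 and 21, where its changes were 0.76 and -0.24. The part of neighbouring type I keratins in the KRT15 row was not tested.

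KRT5 itself moved little. It held 5966 to 10627 CPM in day 0 skin (median 8139) and 8246 to 16234 CPM at the edge on day 1 (median 13161), and the groups overlapped. That day was called higher at 0.55 ± 0.17 (edgeR adjusted p = 0.015). It was called lower on day 15, with 4528, 4709 and 4386 CPM and a change of -0.86 ± 0.16, and on day 21, with 4486, 3612 and 2747 CPM and a change of -1.0 ± 0.20 (edgeR adjusted p = 0.0081 and 0.0046). On the other 11 days it was not called.

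TP63 was below day 0 in the fitted values of all 14 days and called lower on 9 of them. It held 193 to 254 CPM in day 0 skin (median 249) and 110 to 194 CPM on day 9 (median 162), a change of -0.52 ± 0.12 (edgeR adjusted p = 0.0044). Among the 9 TP63 targets and partners the edge was called lower than day 0 for 2 to 8 genes on every day and higher for none, with medians from -1.21 to -0.22. DST was called lower on 11 of 14 days. It fell furthest on day 1, from 223 to 290 CPM in day 0 skin (median 244) to 86.9 to 150 CPM at the edge (median 118), with no overlap and a change of -1.16 ± 0.13 (edgeR adjusted p = 2.4e-05). From day 2 to day 16 the called changes were between -0.64 and -0.37.

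These edge against day 0 calls depend on the fit. With the animal as a block, CDH3 was called higher on 5 days, the KRT15 row on 6 and TP63 lower on 0. Without sample 3 of each group TP63 was called lower on 3 days, and without sample 6 on 5. With all 150 samples in 1 fit, which shares its estimate of spread with the center samples, CDH3, the KRT15 row, KRT5 and TP63 were called on 0 days and DST on 5.

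**Figure D3:**
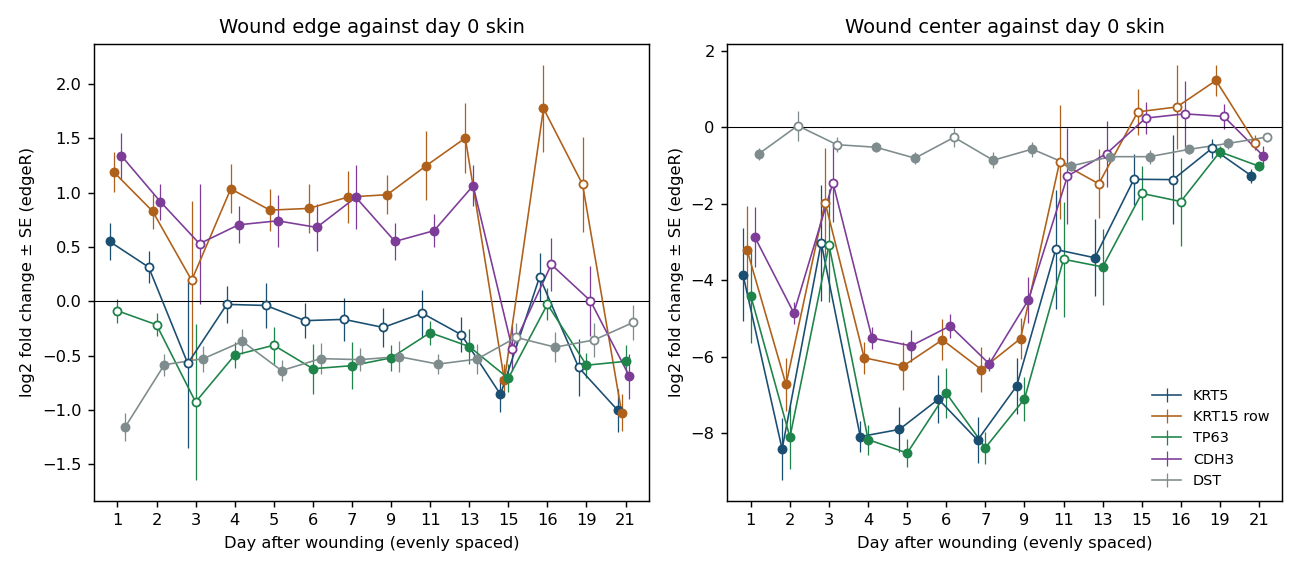
log2 fold change against day 0 skin (edgeR, error bars ± SE) on the vertical axis against the day on the horizontal axis, for the wound edge (left) and wound center (right). Filled points have an adjusted p under 0.05. At the edge CDH3 and the KRT15 row lay above 0 and TP63 and DST below 0 on most days to day 13, and in the center KRT5, the KRT15 row, TP63 and CDH3 were 4.5 to 8.5 lower on days 4 to 9.

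A ratio within a library does not depend on how libraries are scaled, so each gene was also set against KRT5 in the same sample. As background, the same test gave a p of 0.013 or less, the largest called here, for 23.5% of 191744 pairs of gene and day in the direction of a higher ratio and for 7.58% in that of a lower one. In day 0 skin the KRT15 row minus KRT5 was -0.50 ± 0.17 (SD, n = 6) in log2(1 + CPM). At the edge it was higher on 12 of 14 days, rising from 0.12 on day 1 to 1.13 on day 13, while days 15 and 21 stood at -0.38 and -0.52 (two-sided exact permutation test, adjusted p = 0.355 and 0.909 over 56 tests). CDH3 minus KRT5 was -7.15 ± 0.38 in day 0 skin and higher at the edge on 7 days, with the largest mean outside day 3 at -5.82 on day 13 (exact permutation, adjusted p = 0.00866). TP63 minus KRT5 was lower on 4 days (1, 2, 6 and 7), by 0.47 to 0.63, and DST minus KRT5 on days 1 and 2, by 1.70 and 0.89. On the days with 6 edge samples the smallest p this test can give is 0.00216, and on those with 3 it is 0.0119. Permuting within animals gave 0 calls for all 4 ratios, and with 3 animals on a day that form cannot fall under the threshold.

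**Figure D4:**
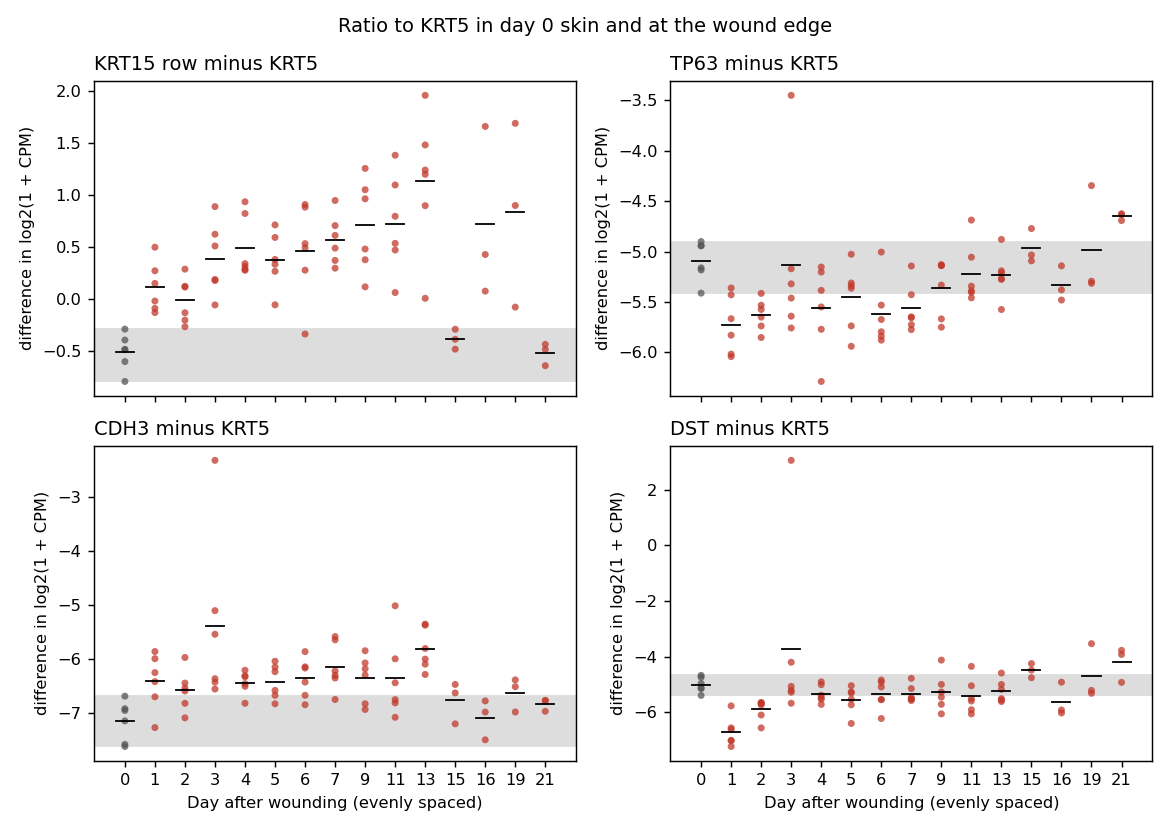
Difference from KRT5 in log2(1 + CPM) in the same library on the vertical axis against the day on the horizontal axis, with 1 point per sample (grey for day 0, red for the wound edge), black bars at the means and a grey band over the day 0 range. The KRT15 row lay above the band in most samples of days 1 to 13 and returned to it on days 15 and 21, and the single high points on day 3 are edge sample 6.

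The third comparison set the wound center against day 0 skin and so followed the loss and return of basal gene RNA in the wound bed. KRT5 was called lower on 9 days, the KRT15 row on 7, TP63 on 10, CDH3 on 8 and DST on 10, and the KRT15 row was called higher on day 19. No member was called on day 3, when 61.0% of genes were called in either direction. On the other 13 days in order, 32.1%, 29%, 33.9%, 36.3%, 32.2%, 35.8%, 30.6%, 32.0%, 31.2%, 27.0%, 27.2%, 21.1% and 20.7% of genes were called lower, and 21.4% were called higher on day 19. On day 4 the center held 14.2 to 49.8 CPM of KRT5 and 0 to 1.33 CPM of TP63, all below day 0 skin. The log2 fold changes that day were -8.09 ± 0.41 for KRT5 and -8.17 ± 0.39 for TP63, against -6.03 ± 0.42 for the KRT15 row and -5.51 ± 0.28 for CDH3. DST was lower by far less, at -0.52 ± 0.13 on day 4 and -1.01 ± 0.14 at its lowest on day 11. On day 2 DST was at 0.04, and without center sample 2, which also led in muscle genes, it was called lower at -0.54 (edgeR adjusted p = 0.0387). That library also held the highest DST value, so the fit without it is no separate test.

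On days 11 to 16 KRT5, TP63 and CDH3 were high in some wound centers and not in others of the same day, on day 11 in sample 1 alone. Single centers were also high earlier, namely sample 5 on day 1 and sample 4 on day 3. On day 13 the 6 center samples held 506, 2044, 24.1, 47.0, 1579 and 37.5 CPM of KRT5, so that samples 1, 2 and 5 were well above the other 3. On day 15 the center samples held 5034, 3640 and 275 CPM and on day 16 they held 7127, 11.7 and 1187 CPM. On day 19 all 3 were high (5948, 5581 and 3217 CPM), as they were on day 21 (3072, 2438 and 3634 CPM). TP63 varied with KRT5 sample by sample, with 120, 76.1 and 4.68 CPM on day 15 and 139, 0.112 and 23.4 CPM on day 16. CDH3 did so too, with 103, 67.7 and 18.0 CPM on day 15 and 138, 0.784 and 54.3 CPM on day 16. By day 21 the center still held less KRT5 than day 0 skin, by -1.26 ± 0.19, less TP63, by -1.02 ± 0.12, and less CDH3, by -0.74 ± 0.26 (edgeR adjusted p = 0.00046, 0.00014 and 0.043). The KRT15 row on day 19 held 18059, 13895 and 3138 CPM and was higher than day 0 by 1.23 ± 0.41 (edgeR adjusted p = 0.034). This call was lost with the animal as a block (0.95, edgeR adjusted p = 0.279), without TMM scaling (1.01, edgeR adjusted p = 0.0613), with all samples in 1 fit, and without any of samples 1, 2, 4, 5 or 6 (0.67 without sample 1).

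Suprabasal genes, which mark keratinocytes that have left the basal layer, were measured in the same centers. On days 15 to 21, 1 to 3 of the 7 found were called lower than day 0 skin and none higher, with medians of -2.72 to 0.15. The 7 did not move alike. Over all 14 center days KRT10 was called lower on 11 and IVL (involucrin) on 7, and IVL reached up to 1.20. On day 15 KRT10, the type I keratin of those cells, was lower in the center than in day 0 skin by -4.35 ± 0.93 (edgeR adjusted p = 0.0033), when KRT5 was not called. On day 16 KRT10 was at -6.38 ± 1.00 and on day 21 at 0.15 ± 0.26, where it was not called (edgeR adjusted p = 0.69) and KRT5 was called lower. The summed level of the 7 suprabasal genes found of 10 listed was 173 to 3656 CPM in the center on day 15, against 26843 to 51312 CPM at the edge, and 34529 to 47644 CPM in the center on day 21. KRT6C, by contrast, was above day 0 in the center on each of days 15 to 21, by 2.51 to 4.27. The difference in timing between KRT5 and these genes was not tested.

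The return was then tested in 2 ways. In the center, the mean of days 15 to 21 was set against that of days 11 and 13. KRT5 was higher by 2.16 ± 1.11, TP63 by 2.21 ± 1.07, the KRT15 row by 1.63 ± 1.11 and CDH3 by 1.01 ± 0.94, and none of these was called (edgeR adjusted p = 0.17, 0.15, 0.31 and 0.48). DST was called higher at 0.38 ± 0.12 (edgeR adjusted p = 0.028), where 10.2% of genes were called higher. Without day 11 center sample 1, KRT5 was higher by 4.93, TP63 by 4.84, the KRT15 row by 4.55 and CDH3 by 3.21, all called. With the animal as a block the first 3 were at 4.26, 3.84 and 3.71, also called. Day 11 center sample 1 was itself high in these genes, so the fit without it is no separate test. The second test compared edge minus center within animals. For KRT5 it was 7.18 ± 1.04 over days 5 to 13 and 1.39 ± 1.75 over days 15 to 21 (mean ± SD, n = 6 animals). The change of -5.80 ± 1.87 was negative in 6 of 6 animals, as were those of the KRT15 row (-6.05 ± 2.11), TP63 (-4.44 ± 1.41) and CDH3 (-4.62 ± 0.91), each with a two-sided exact sign-flip permutation p = 0.0312 and 0.0391 after adjustment. For DST the change was -0.02 ± 0.24 (exact permutation p = 0.812). Only the members were tested in this way, so the share of all genes with such a change is not known.

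At the edge the late days were also lower for part of the group. Against days 5 to 7, days 15 to 21 were lower by -1.01 ± 0.23 for CDH3, -0.63 ± 0.25 for the KRT15 row and -0.45 ± 0.16 for KRT5 (edgeR adjusted p = 0.00099, 0.043 and 0.020), where 24.3% of genes were called lower. DST was higher by 0.22 ± 0.09 (edgeR adjusted p = 0.039; 21.2% of genes called higher) and TP63 was at 0.05 ± 0.17. Without TMM scaling DST was at 0.045 and not called, and TP63 at -0.14. With all 150 samples in 1 fit none of the 4 calls was kept (edgeR adjusted p = 0.099 to 0.599). Of the 14 other basal layer genes 9 were called lower and 2 higher, and of the 7 suprabasal genes 6 were called higher and none lower.

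Across the 29 combinations of day and location, the mean log2(1 + CPM) of KRT5, the KRT15 row, TP63 and CDH3 had Pearson correlations of 0.967 to 0.995 with each other, and DST of 0.032 to 0.148 with them. Over the 14 edge states alone the 4 correlated at 0.502 to 0.907, lowest for TP63 with CDH3. These describe states that share animals and libraries and a common edge to center contrast. Of 13206 genes compared, the nearest pattern to KRT5 was that of PROM2, a membrane protein of epithelial protrusions, followed by DSG3 (desmoglein 3) and PKP3 (plakophilin 3), at r = 0.996. PKP3, DSP and PKP1 were nearest to TP63, DSG3, SFN and MPZL2 to the KRT15 row, and BTBD11, SFN and LAMA3 to CDH3 (r = 0.988, 0.988 and 0.987). The nearest to DST were MBNL2, SPARCL1 and LHFPL3, at a lower r of 0.827 to 0.836.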

How the data were processed

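Bulk RNA-seq libraries (poly-A enrichment, paired-end Illumina reads) were sequenced and processed by Novogene. The aligner, the counter, its use of strand and the genome build are not given in the sources used here. The authors deposited raw read counts per gene for 150 samples, and FPKM values for the same genes, which served here for levels between genes and as an alternative scale. The 5 members and all gene lists were chosen with earlier results of these data known. Where a symbol had several rows, the row with the largest total count was used. Named genes were the members, the 3 genes nearest to each in mean log2(1 + CPM) over the 29 states, and up to 3 per list with the largest mean edge to center change. Other list genes in the text, such as ITGB1, CTNNB1, IVL, KRT31, KRT35 and CD68, fell outside this rule and were named with their values known. A row without symbol was never named by guess.

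Counts were tested with edgeR 4.0.16 in R 4.3.3 (quasi-likelihood test, TMM scaling, genes kept by filterByExpr at min.count 10 and min.total.count 15), 1 fit per comparison over all genes, Benjamini-Hochberg threshold 0.05. Groups came from the sample titles. Sign-flip tests over 6 animals and exact permutation tests of ratios were full enumerations with numpy 2.4.6 and a pseudocount of 1 CPM. The scripts were tested on simulated data. The pairing of edge and center comes from the wound label and that with day 0 from the animal label. Deviations from the group mean correlated at -0.307 to 0.806 within wounds (median 0.274, 72 pairs) and at a median of 0.0216 between the edge and day 0 of an animal (42 pairs). Alternatives were a replicate block, DESeq2 1.42.0, no TMM, no low-count filter, all samples in 1 fit, counts summed per animal, another pseudocount, FPKM, leaving out each replicate, and leaving out 7 libraries that an earlier analysis found apart. Precision is limited by the 3 or 6 samples per state, and p-values over wounds of 1 animal cover the spread between wounds.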

Additional observations from a re-analysis of the deposited data

Results flagged for a closer look

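Of 105 groups of 6 samples tested for a lone sample (5 genes in 21 groups), 18 held a value whose gap to its nearest neighbour, divided by the range, was above Dixon's critical ratio of 0.625, where chance flags about 1 in 20, or 5.25. They came from 8 libraries. KRT5, the KRT15 row, TP63 and CDH3 vary together, so a single library can be flagged in several genes. The flags are therefore not independent, and the excess over 5.25 was not tested. Day 1 center sample 5 was high in KRT5 (ratio 0.661), the KRT15 row (0.640), TP63 (0.847) and CDH3 (0.698), with 72.7 CPM of TP63 against 0.534 to 1.78 CPM in the other 5. Day 3 edge sample 6 was low in KRT5 (0.809), the KRT15 row (0.845), TP63 (0.754) and CDH3 (0.869), with 2.82 CPM of CDH3 against 87.5 to 141 CPM. Day 3 center sample 4 was high in CDH3 (0.735), at 121 CPM against 1.51 to 6.03 CPM. Day 11 center sample 1 was high in KRT5 (0.753), the KRT15 row (0.741), TP63 (0.833) and CDH3 (0.801), with 121 CPM of TP63 against 0 to 1.23 CPM. Day 5 center sample 1 was high in the KRT15 row (0.629) and CDH3 (0.660), at 3.63 CPM of CDH3 against 0.312 to 1.01 CPM. Day 0 skin sample 4 was low in TP63 (0.721), at 193 CPM against 235 to 254 CPM. DST was low in day 2 edge sample 3 (0.682) and high in sample 5 of the day 6 centers (0.647).

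The excess of the edge over the center differed between days 15 to 21 and days 5 to 13, by the sign-flip test over animals given above. The change in log2(1 + CPM) was -5.80 for KRT5, -6.05 for the KRT15 row, -4.44 for TP63 and -4.62 for CDH3, in 6 of 6 animals each. The share of all genes with such a change is not known.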

How the results depend on the processing

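DESeq2, counts summed or values averaged per animal, a pseudocount of 0.5, FPKM and TMM-scaled CPM moved no number of called days by over 1.5 times, and in the results each was run on they took no late change or test over animals across the threshold. With the replicate block, days called at the edge against day 0 were 5 higher and 0 lower for CDH3, 6 and 1 for the KRT15 row, 1 lower for KRT5 and 0 lower for TP63, ratios to KRT5 were called on 0 days, DST was called higher than the center on 2 days and lower on 0, the KRT15 row was above day 0 on 0 center days, and the late center changes were 4.26 (KRT5), 3.71 (KRT15 row) and 3.84 (TP63). With 3 animals the blocked ratio test cannot pass. All samples in 1 fit gave 0 edge days for CDH3, KRT5, the KRT15 row and TP63, 5 for DST, and uncalled late edge values of -1.0 (CDH3), 0.22 (DST), -0.63 (KRT15 row) and -0.45 (KRT5), 0.37 for late center DST, and called late center values of 2.15 (KRT5) and 2.20 (TP63). Without TMM, KRT5 at the edge was called higher on 2 days and lower on 4, the KRT15 row in the center higher on 0, DST was uncalled at 0.30 (late center) and 0.045 (late edge), and TP63 turned to -0.14 at the late edge. Without the low-count filter TP63 was lower at the edge on 5 days, DST lower than the center on 0, and late edge values were 0.23 (DST) and -0.62 (KRT15 row), both uncalled. Without the 7 libraries apart, late center values were 3.21 (CDH3), 4.55 (KRT15 row), 4.93 (KRT5) and 4.84 (TP63), all called, and DST in the day 2 center was at -0.54 (-0.37 with the block, and -0.56 to 0.21 over the fits that leave out 1 sample number). The cause of these changes was not tested.

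Leaving out each replicate or animal gave these ranges. Ratios to KRT5 were called on 6 to 8 days (CDH3), 10 to 12 (KRT15 row), 2 to 7 (TP63) and 2 to 4 (DST). At the edge against day 0, CDH3 was higher on 5 to 10 days and lower on 0 to 1, the KRT15 row higher on 9 to 11 and lower on 1 to 2, KRT5 higher on 0 to 2 and lower on 1 to 2, TP63 lower on 3 to 8 and DST lower on 9 to 12. The KRT15 row was above day 0 on 0 to 2 center days, and DST lower than the center on 0 to 1. Late center values were 0.74 to 2.57 (CDH3), 0.27 to 0.40 (DST), 1.36 to 3.51 (KRT15 row), 1.89 to 4.06 (KRT5) and 1.94 to 3.94 (TP63). Late edge values were -1.12 to -0.78 (CDH3), 0.14 to 0.35 (DST), -0.95 to -0.35 (KRT15 row), -0.53 to -0.24 (KRT5) and -0.068 to 0.18 (TP63). Edge minus center was 3.23 to 3.55 (CDH3), 0.04 to 0.11 (DST), 4.63 to 5.03 (KRT15 row), 5.30 to 5.67 (KRT5) and 4.45 to 4.75 (TP63), and relative to KRT5 -2.23 to -2.07 (CDH3), -5.60 to -5.26 (DST), -0.72 to -0.62 (KRT15 row) and -0.93 to -0.85 (TP63). The late change was -4.86 to -4.37 (CDH3), -0.088 to 0.014 (DST), -6.74 to -5.55 (KRT15 row), -6.47 to -5.38 (KRT5) and -4.89 to -4.05 (TP63), and 5 animals cannot pass the test. TP63 and CDH3 in the center rest on few reads, so that differences among center samples there are hard to detect at this depth.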
